A study of Mus musculus with 2 samples.

Results

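The miRNAs miR-21, miR-146a and the pair of miR-221 and miR-222, which are studied for their work in spermatogonia, were followed here through their 4 genes, Mir21a, Mir146a, Mir221 and Mir222. They were chosen by name, by a rule that uses no measured value, although earlier results of these data were known. A read was assigned to a gene when its sequence of at least 16 nt lay exactly, on the sense strand, inside the annotated hairpin, and all 4 genes had reads. They are 4 of 2201 miRNA genes in the annotation, of which 1230 had a read and 458 had at least 100 reads over both libraries.

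The reads come from small RNA libraries of whole C57BL/6 mouse testes at embryonic day 16.5 (E16.5), obtained by natural mating. One library was made from 20 pooled wild-type (WT) testes and the other from 20 pooled testes of Hsp90α knockout (KO) animals, which lack the stress-inducible form of the HSP90 chaperone encoded by Hsp90aa1 and retain Hsp90β. At this age the germ cells are prospermatogonia, and the study describes HSP90α protein as restricted to them, whereas the RNA came from all cell types of the testis. With 1 library per genotype there was no replicate check of any difference, and a change in the number of cells of a type cannot be told apart from a change of RNA per cell.

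A miRNA is cut from the stem of a hairpin precursor, first by Drosha and then by Dicer, and one arm of the stem, the guide, is kept by an Argonaute protein while the other, the passenger, is mostly lost. The guide finds mRNAs mainly through its seed, bases 2 to 8 from its 5′ end, and copies of one miRNA that differ at an end are called isomiRs. In the postnatal testis, miR-21 is known for supporting the self-renewal of spermatogonial stem cells. miR-146a is known for dampening retinoic acid signalling in undifferentiated spermatogonia, with Med1, a Mediator subunit and nuclear receptor coactivator, as a target, and miR-221 and miR-222 are known for repressing Kit, the receptor whose appearance marks spermatogonial differentiation.

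The mature sequences identify what was counted and show which of these miRNAs share a seed. They are given from RefSeq for GRCm38.p6, 5′ to 3′, with the seed in capitals, first the guide strands and then the opposite strands that RefSeq lists.
miR-21a-5p: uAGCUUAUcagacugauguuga
miR-146a-5p: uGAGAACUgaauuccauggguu
miR-221-3p: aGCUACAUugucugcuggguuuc
miR-222-3p: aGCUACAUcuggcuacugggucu
miR-21a-3p: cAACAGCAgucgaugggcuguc
miR-146a-3p: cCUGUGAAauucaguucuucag
miR-221-5p: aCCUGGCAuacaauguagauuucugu
miR-221-3p and miR-222-3p have the same first 8 bases, seed included, and differ at 12 later positions, so a full-length read of one cannot be taken for the other. The closest relative of miR-146a-5p is miR-146b-5p (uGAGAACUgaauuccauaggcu), the product of a gene on another chromosome. It has the same first 17 bases and differs by G18A and U21C, with positions counted from 1 at the 5′ end of miR-146a-5p.

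The hairpin of Mir21a (ENSMUSG00000065455.1) lies at chr11:86584067-86584158 on the minus strand of GRCm38, inside exon 12 of Vmp1, an autophagy gene, and within its 3′ UTR on the same strand. Mir146a (ENSMUSG00000065601.1, listed as Mir146) lies at chr11:43374397-43374461 on the minus strand and overlaps no other annotated gene. Mir221 (ENSMUSG00000065422.1) lies at chrX:19146294-19146388 and Mir222 (ENSMUSG00000065471.1) at chrX:19146893-19146971, both on the minus strand, with 504 bases between the hairpins and no other gene over either. The mature guides occupy chr11:86584120-86584141 for miR-21a-5p, chr11:43374435-43374456 for miR-146a-5p, chrX:19146307-19146329 for miR-221-3p and chrX:19146901-19146923 for miR-222-3p.

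The WT library held 6409305 reads and the KO library 5589326, of which 2523084 (39.4%) and 2561491 (45.8%) matched a miRNA hairpin. Levels are given as RPM, the reads per 1000000 of these hairpin-matching reads, following the normalization to miRNA reads that the study used. On this scale 3 reads, the limit that a count of 0 allows, correspond to 1.19 in WT and 1.17 in KO. Intervals are exact 95% Clopper-Pearson intervals, which cover counting error only, since the reads carry no molecular identifiers and PCR copies are not independent molecules. Reads of at least 20 nt inside Hsp90aa1 transcripts numbered 20 in WT and 36 in KO, and such short fragments of an mRNA do not check the deletion.

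miR-21 was by far the most abundant of the 4 miRNAs, miR-146a was intermediate and miR-221 and miR-222 were scarce, and this order of abundance was nearly the same in both libraries. Mir21a had 4294 reads in WT and 4224 in KO, or 1702 and 1649 RPM. Mir146a had 242 and 235 reads, or 95.9 and 91.7 RPM. Both genes lay within a few percent of each other between the libraries. Mir221 had 76 and 68 reads, or 30.1 and 26.5 RPM. Mir222 had 78 and 61 reads, or 30.9 and 23.8 RPM. Each of the 4 was lower in the KO library on this scale, and for each the counting intervals of the libraries overlapped.

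**Figure D1:**
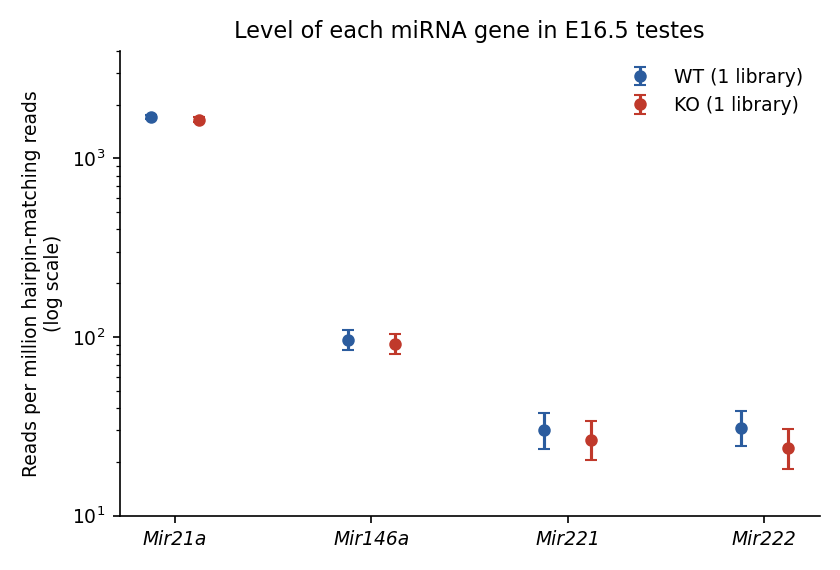
RPM of hairpin-matching reads (log scale) of Mir21a, Mir146a, Mir221 and Mir222 in the WT and the KO library, with exact 95% intervals of counting error and no replicates. Mir21a stands at 1702 and 1649, Mir146a at 95.9 and 91.7, and the points of Mir221 and Mir222 lie between 23.8 and 30.9 with intervals that overlap.

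Within a library, Mir21a exceeded Mir146a 17.7-fold in WT (15.6 to 20.3) and 17.97-fold in KO (15.8 to 20.6). Mir146a exceeded Mir221 3.18-fold in WT (2.45 to 4.18) and 3.46-fold in KO (2.63 to 4.60). Mir222 and Mir221, neighbours on the X chromosome, could not be ordered: the Mir222/Mir221 quotient was 1.03 in WT (0.739 to 1.43) and 0.897 in KO (0.624 to 1.29). These quotients do not depend on the normalizing total, and how efficiently the library captured each sequence was not measured. Among the 266 genes with a Mir symbol and at least 100 reads, Mir21a ranked 53 by level in WT and 56 in KO, and Mir146a ranked 158 and 163. Mir221 moved from rank 223 to 246 and Mir222 from 220 to 255, at depths where single reads change the rank. The gene copies of Mir467a (mean of WT and KO 32.4 RPM) and of Mir669a (30.3 RPM) lie near these levels. Copies with the same values were each ranked. Together the 4 genes took 4690 reads, or 0.186% of hairpin-matching reads, in WT and 4588 reads, or 0.179%, in KO.

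The KO/WT ratio asks whether these miRNAs changed when HSP90α was missing, and none of the 4 reached a 1.5-fold difference in either direction. The ratio was 0.969 for Mir21a (0.928 to 1.01) and 0.957 for Mir146a (0.796 to 1.15), so that for both a 1.5-fold difference either way lay outside the counting interval. It was 0.881 for Mir221 (0.626 to 1.24) and 0.770 for Mir222 (0.542 to 1.09). A 1.5-fold reduction and no difference both lay inside each of these intervals, so that counting error left neither out. Summed over the 4 genes, the ratio was 0.964 (0.925 to 1.004). Mir21a gave 4294 of the 4690 summed reads in WT and 4224 of 4588 in KO, so the sum says little about the other genes.

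These counts are read against all miRNA genes with at least 100 reads. Of the 458 genes, 0% were at least 1.5-fold higher in KO and 40.0% at least 1.5-fold lower. The absence of higher genes depends on the scaling and the minimum: with all reads as the total, 15 of the 191 genes past the fold were higher, and with a minimum of 20 reads, 24 of the 245 were. The lower ones were largely genes of the miRNA class without a Mir symbol. Of these, 176 of 192 were past the fold, and their median ratio was 0.341. Of their WT reads, 55.4% were 24 to 33 nt long, against 7.58% for genes with a Mir symbol. Many of the 192 are not separate counts, because a sequence in several hairpins was counted for each gene. Gm22029 and Gm22102, for example, both had 387 WT and 156 KO reads. Counted once, the reads of the 192 genes numbered 15362 in WT and 8155 in KO. Among the 266 genes with a Mir symbol, 0% were at least 1.5-fold higher and 2.63% at least 1.5-fold lower. The 7 lower genes included Mir3470a, Mir3470b, Mir3471-1 and Mir3471-2, at log2 ratios of -1.13, -1.42, -1.86 and -2.23, as low as the class without a Mir symbol. The others were Mir144, Mir495 and Mir668, at -0.80, -0.62 and -0.59. Against these shares of the 266 genes, 0 of 4 in either direction is an ordinary count.

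Set among the same 266 genes, whose ratios had a median of 0.990 and 5th and 95th percentiles of 0.755 and 1.31, the 4 miRNAs lay under the median. Counted from the lowest ratio, Mir222 ranked 15, Mir221 ranked 50, Mir146a ranked 99 and Mir21a ranked 113. Genes of like depth, the 60 with fewer than 200 reads, spanned 0.648 to 1.32 between their 5th and 95th percentiles. Mir221 and Mir222 fell inside that span. The 60 are not separate measurements: the Mir467a copies all had a log2 ratio of 0.347 and the Mir669a copies all 0.0907, at equal levels within each family. The percentiles and ranks count each such copy as a gene. The 119 genes with at least 1000 reads spanned 0.829 to 1.28, with Mir21a near their median of 0.981.

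**Figure D2:**
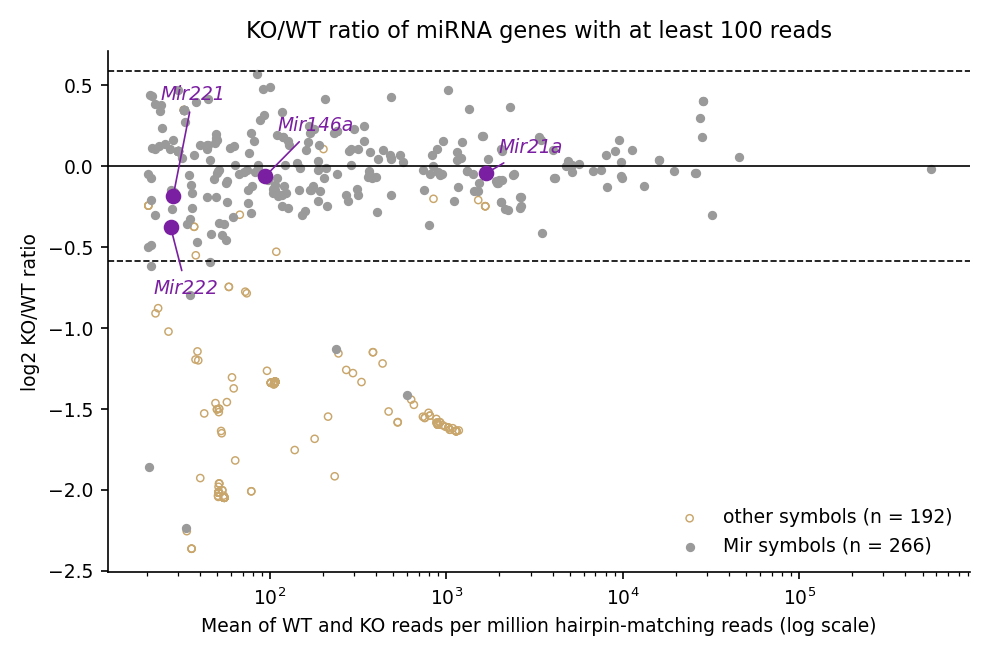
log2 KO/WT ratio against the mean level of WT and KO in RPM of hairpin-matching reads (log scale) for 266 genes with a Mir symbol (grey) and 192 other genes of the miRNA class (open circles), each with at least 100 reads; dashed lines mark 1.5-fold. The 4 labelled genes lie between the dashed lines, at log2 ratios of -0.05 (Mir21a), -0.06 (Mir146a), -0.18 (Mir221) and -0.38 (Mir222), while most open circles lie under the lower line.

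The direction of these small differences rests on the total to which the reads are scaled. With all reads of each library as the total, every ratio is multiplied by 1.16 and the values become 1.13 for Mir21a (1.08 to 1.18), 1.11 for Mir146a, 1.03 for Mir221 and 0.897 for Mir222, so that only Mir222 was still below 1. The KO library held a larger share of hairpin-matching reads than the WT library, as given above. The factor of 1.16 is the KO share over the WT share, and what raised the share in KO was not tested. Scaled to the 20–23-nt reads, the ratios were 0.978, 0.965, 0.889 and 0.777 in the same order. Scaled to hairpin reads without Mir10b, the Mir21a ratio was 0.955, and its interval of 0.915 to 0.997 no longer reached 1.

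Levels of cell type markers moved between the libraries as well. Of 11 germ cell miRNAs, clusters known from pluripotent and primordial germ cells, 5 had at least 100 reads and all 5 were above 1, from 1.11 (Mir292) to 1.48 (Mir291a), with 0 past the fold. These 5 all belong to the miR-290 cluster, so they do not count as separate markers. The summed level of all 11 was 796 RPM in WT and 1033 in KO, a ratio of 1.30 (1.22 to 1.38), and Mir302c and Mir367 had no read. Both gonadal support cell miRNAs, Mir202 and Mir140, were at 1.07 and 1.05, and the endothelial Mir126a was at 1.003. The 3 erythroid miRNAs were below 1, from 0.575 (Mir144) to 0.877 (Mir486), with 1 past the fold (Mir144) and a summed ratio of 0.870 (0.842 to 0.899), and the 3 leukocyte miRNAs summed to 0.819 (0.753 to 0.890) with 0 past the fold. The 5 mesenchymal miRNAs ranged from 0.811 (Mir143) to 1.32 (Mir199a-1), with 0 past the fold and a summed level of 61366 RPM in WT and 62534 in KO. The part of these cell types in the ratios of miR-21, miR-146a, miR-221 and miR-222 was not tested.

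Other miRNAs described in spermatogonia lay on both sides of 1. Of 10 listed, 8 had at least 100 reads, 4 were above 1, 4 were below 1 and 0 were past the fold. Their median was 1.002, against a median of 0.990 over the genes with a Mir symbol. Those below 1 include both gene copies of miR-135a, Mir135a-1 (52 and 51 reads) and Mir135a-2 (55 and 53). Any read that fits both copies was counted for each. Mir183, from a cluster known in sensory cells, had 3779 reads in WT and 4366 in KO, a ratio of 1.14 (1.09 to 1.19). Its cluster neighbour Mir182 had 14143 and 14507 reads, a ratio of 1.01 (0.987 to 1.03). Mir20a, of the proliferation-associated miR-17-92 cluster, was at 0.993 (0.859 to 1.15), and Mir34c, known from meiotic and later germ cells, was at 1.05 (0.974 to 1.13). The lowest was Mir31, with 60 and 43 reads and a ratio of 0.706 (0.466 to 1.06). Mir106a had 13 and 25 reads and Mir224 had 48 and 51, too few to pass the minimum.

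**Figure D3:**
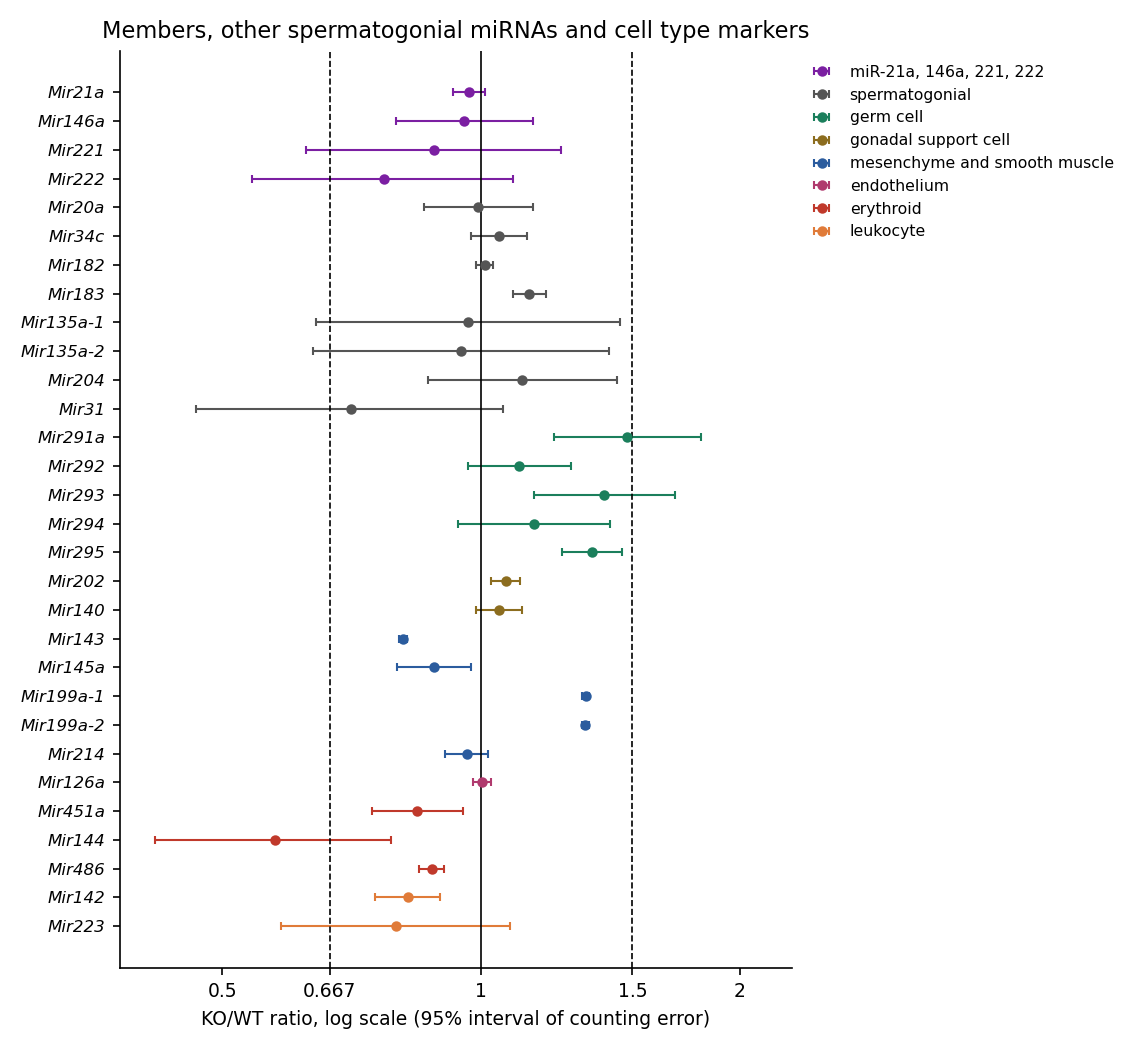
KO/WT ratio of RPM of hairpin-matching reads (log scale) with 95% intervals of counting error for the 4 miRNA genes, the other spermatogonial miRNAs and the cell type marker miRNAs with at least 100 reads; dashed lines mark 1.5-fold in either direction. The 4 genes lie between 0.770 and 0.969, the germ cell markers between 1.11 and 1.48, and the erythroid and leukocyte markers between 0.575 and 0.877.

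Most reads of each gene came from 1 arm, taken here as the guide, and the arm balance did not pass a test for a difference between the libraries. For Mir21a, 4255 of 4294 WT reads (99.1%) and 4181 of 4224 KO reads (98.98%) were in the 5′ part of the hairpin, up to its middle. Every one of the 242 and 235 Mir146a reads came from the 5p arm, and 0 reads of miR-146a-3p allow a share of that arm of up to 1.51% in WT and 1.56% in KO at the upper 95% bound. Mir222 gave 78 reads of the 3p arm in WT and none of the other arm, and 60 against 1 in KO.

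Mir221 was the only one of the 4 with a sizeable second arm. The 3p arm took 64 of 76 reads in WT (84.2%, 74.0 to 91.6) and 52 of 68 in KO (76.5%, 64.6 to 85.9), and the remaining 12 and 16 reads were miR-221-5p. Fisher's exact tests of the arm shares gave adjusted p values of 0.877 for Mir21a, 1 for Mir146a, 0.587 for Mir221 and 0.702 for Mir222. With 0 reads of the other arm for Mir146a and 1 for Mir222, the tests of those genes could not have shown a difference. These exact tests, adjusted by Benjamini-Hochberg over 8 tests of arms and isomiRs, compare the 2 libraries and not the genotypes.

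**Figure D4:**
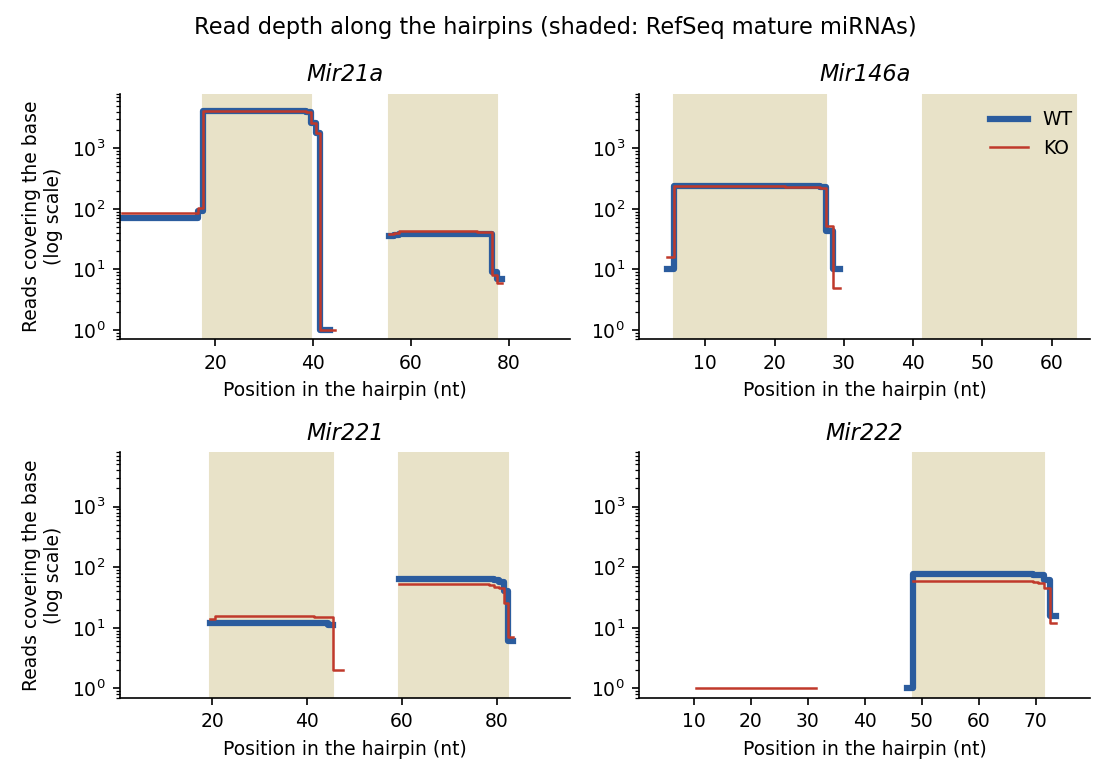
Number of reads covering each base of the hairpins (log scale), by position from the 5′ end of the hairpin, in WT (thick blue) and KO (thin red), with the RefSeq mature miRNAs shaded; bases without reads have no line. Reads fill the shaded guide arm of each gene, Mir221 shows a second arm with 12 WT and 16 KO reads, and Mir21a has a stretch of 71 WT and 86 KO reads before the start of miR-21a-5p.

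The most frequent isomiR was not the RefSeq sequence for miR-21 and miR-222, and it was for miR-146a and, over both libraries together, for miR-221. The leading sequences were read on the hairpin as follows, as DNA, with bases beyond the RefSeq 3′ end in capitals.
miR-21a, 24 nt: tagcttatcagactgatgttgaCT
miR-146a, 22 nt: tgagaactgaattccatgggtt
miR-221, 23 nt: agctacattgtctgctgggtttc
miR-222, 24 nt: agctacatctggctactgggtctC
The 24-nt form of miR-21, extended by 2 bases, had 1746 of 4255 guide-arm reads in WT (41.0%, 39.6 to 42.5) and 1792 of 4181 in KO (42.9%, 41.4 to 44.4). These arm totals include 71 WT and 86 KO reads of a 17-nt RNA that lies before miR-21a-5p and is described below. The RefSeq 22-nt form followed with 1352 and 1275 reads, and the 23-nt form with 898 and 851. The order of these 3 forms of miR-21 was the same in both libraries.

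For miR-146a the RefSeq form took 181 of 242 reads in WT (74.8%) and 162 of 235 in KO (68.9%), and the form 1 base longer had 31 and 46 reads. For miR-222 the form 1 base longer than RefSeq took 46 of 78 reads (59.0%) and 34 of 60 (56.7%), while the RefSeq form had 11 and 9 reads. The widest gap between the libraries was in miR-221, whose RefSeq form took 35 of 64 guide-arm reads in WT (54.7%, 41.7 to 67.2) and 19 of 52 in KO (36.5%, 23.6 to 51.0). The miR-221 form 1 base shorter had 17 reads in WT and 20 in KO, where it was 1 read ahead of the RefSeq form. Fisher's exact test of the leading share gave p = 0.0624 for Mir221, with an adjusted p of 0.358 over the 8 tests. The adjusted p values from the same exact test were 0.358 for Mir21a, 0.494 for Mir146a and 0.986 for Mir222. By level, the RefSeq form of miR-221 had a KO/WT ratio of 0.535 (0.289 to 0.961), an interval that is not adjusted for the 54 sequences counted over the 4 genes.

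Read as a whole, the 3′ ends separated miR-21 and miR-222, mostly longer than their RefSeq sequence, from miR-146a and miR-221, mostly at it or shorter. Reads extended at the 3′ end made up 63.3% of miR-21 reads in WT and 64.7% in KO, and 79.5% and 76.7% of miR-222 reads. The 17-nt RNA before miR-21a-5p is left out of these miR-21 reads. They made up 17.8% and 22.1% for miR-146a and 9.38% and 13.5% for miR-221. The mean length of miR-21 guide reads was 22.98 nt in WT and 23.02 nt in KO. Mir221 and Mir222, which share a seed and a locus, thus differed in their 3′ ends in both libraries, with intervals for the extended share of 3.52 to 19.3% against 68.8 to 87.8% in WT and of 5.59 to 25.8% against 64.0 to 86.6% in KO.

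**Figure D5:**
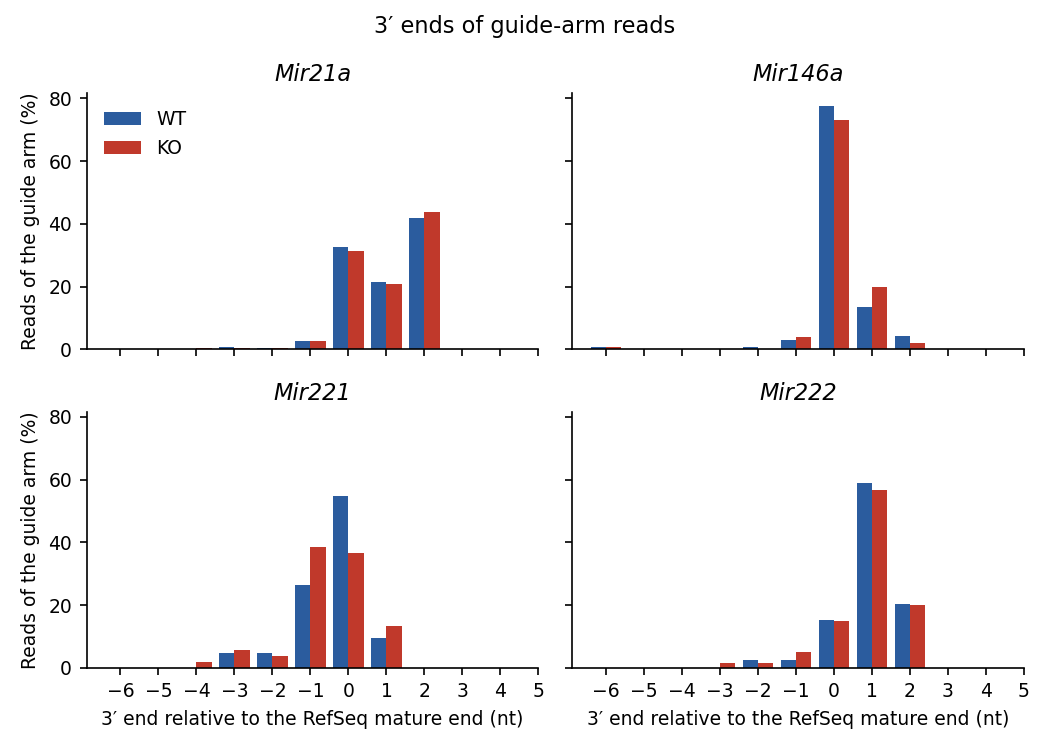
Share of guide-arm reads (%) by the distance of the 3′ end from the RefSeq mature end in nt, for each gene, in WT (blue) and KO (red). For Mir21a the 17-nt RNA before miR-21a-5p is left out. Mir21a and Mir222 have most reads at positive distances (63.3% and 79.5% in WT), Mir146a peaks at 0, and Mir221 has 54.7% of WT and 36.5% of KO reads at 0.

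The 5′ end fixes the seed, and it was nearly uniform. Of miR-21 guide reads, with the 17-nt RNA before them left out, 4161 of 4184 in WT and 4074 of 4095 in KO began at the RefSeq start. All 64 and 52 guide reads of miR-221 and all but 1 of the 78 and 60 reads of miR-222 did so too. miR-146a had the largest shifted share: reads beginning 1 base upstream, which moves the seed by a base, numbered 10 of 242 in WT (4.13%, 1.999 to 7.47) and 16 of 235 in KO (6.81%, 3.94 to 10.8), with overlapping intervals. The most frequent of these in both libraries was the 23-nt sequence Ctgagaactgaattccatgggtt, with the added base in capitals, at 7 and 10 reads.

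Untemplated bases at the 3′ end, which terminal transferases add to finished miRNAs, were counted apart from the exact reads. With 1 or 2 such bases, miR-146a had a tailed share of 23.2% in WT (18.6 to 28.2) and 20.3% in KO (15.9 to 25.4), and miR-221 had 24% (16.02 to 33.6) and 24.4% (15.997 to 34.6). miR-21 had 4.62% and 4.71%, and miR-222 had 8.24% and 6.15%, against 11.2% and 11.1% over all hairpins. An added base equal to the next base of the hairpin was counted as an exact read. The tails that can be seen thus depend on the hairpin sequence. That next base is T after the 23-nt form of miR-21, and A after the RefSeq forms of miR-146a and miR-221. Within this limit, the added base differed by miRNA. A single T was the most frequent tail of miR-146a, with 31 and 27 reads, and of miR-221, with 16 and 12 reads, whereas a single C led for miR-21, with 121 and 118 reads. The tailed sequences with most reads are given with the tail in capitals.
miR-21a with C: tagcttatcagactgatgttgacC
miR-146a with T: tgagaactgaattccatgggttT
miR-221 with T: agctacattgtctgctgggtttcT
These had 119 and 118, 25 and 26, and 13 and 6 reads in WT and KO. A substitution error in sequencing cannot be told apart from an added base. With tailed reads included, the KO/WT ratios were 0.971 for Mir21a, 0.923 for Mir146a, 0.887 for Mir221 and 0.754 for Mir222.

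A 17-nt RNA lay directly before miR-21a-5p, at bases 1 to 17 of the hairpin, and ended where the miRNA began. Its sequence was tgtaccaccttgtcgga. It had 71 reads in WT and 86 in KO, a ratio of 1.19 (0.861 to 1.66), and outnumbered the 39 and 43 reads of the miR-21a-3p arm. A further 48 WT and 49 KO reads ended at the same base but started upstream of the annotated hairpin, and 95 of these 97 reads matched the Vmp1 transcript that contains the hairpin. Together the reads ending at that base numbered 119 and 135, a ratio of 1.12 (0.867 to 1.44). Without the 17-nt reads, the Mir21a ratio was 0.965 in place of 0.969.

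Mir146b, which makes the close relative of miR-146a with the same seed, was the more abundant source of that seed. It had 2115 reads in WT and 2151 in KO, or 838 and 840 RPM, a ratio of 1.002 (0.943 to 1.06). It exceeded Mir146a 8.74-fold in WT (7.65 to 10.02) and 9.15-fold in KO (7.996 to 10.5). A pair of short sequences, with 2 WT and 2 KO reads in all, fitted both genes, and without them the Mir146a ratio was 0.956. The miR-21 relatives Mir21b and Mir21c had 0 reads in both libraries.

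The seed sites in known targets show what the seeds printed above would pair with, and no mRNA level was measured in these libraries. An 8-base site is the complement of the seed followed by A. In the longest annotated 3′ UTR of each of 20961 protein-coding genes, the miR-21 site ATAAGCTA occurred in 2.09%, the miR-146 site AGTTCTCA in 4.06% and the site of miR-221 and miR-222, ATGTAGCA, in 3.48%. Of the textbook targets searched, Pdcd4, a translation inhibitor, Spry1, a brake on receptor tyrosine kinase signalling, and Reck, a matrix metalloproteinase inhibitor, each held 1 miR-21 site. Irak1 held 2 miR-146 sites and Traf6, its partner in innate immune signalling, held 4. Med1 held 3 matches to the miR-146 seed, of which 1 was an 8-base site. Kit held 2 sites of miR-221 and miR-222, while the cell cycle inhibitor Cdkn1b held 1. The sites of the targets best known from spermatogonia are given with 14 bases before them and the site in capitals, for GRCm38.
Med1, minus strand, chr11:98153914-98153935: ttgagtgcaacagaAGTTCTCA
Kit, plus strand, chr5:75654978-75654999: atgatgggagatatATGTAGCA
Kit, plus strand, chr5:75656509-75656530: ttgtaaatattgaaATGTAGCA
A match describes the sequence and does not show that the site was used.

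The genes nearest to each of the 4 by KO/WT ratio were Mir431 (0.969) and Mir181a-2 (0.970) for Mir21a, Mir411 (0.957) and Mir379 (0.953) for Mir146a, and Mir98 (0.882) and Mir145a (0.882) for Mir221. For Mir222 they were Gm47295 and Gm47299, both at 0.771. By WT level the nearest genes with a Mir symbol were Mir186 to Mir21a, with 1692 RPM and a ratio of 1.03 (0.987 to 1.07), Mir193b to Mir221, with 30.1 RPM and a ratio of 0.894 (0.636 to 1.26), and Mir429 and Mir497 to Mir222, at 1.03 and 0.831. The other nearest genes by level, Gm28010, Gm47301, Gm26318 and Gm24810, had ratios of 0.284 to 0.580. Likeness here is in one number over 1 library per genotype.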

How the data were processed

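Total RNA of 20 whole testes per genotype was made into TruSeq small RNA libraries and read by 50-bp single-end sequencing on MiSeq. The authors clipped the adaptor and deposited, for each library, distinct sequences of 11 to 48 nt with raw read counts, without normalization. The study mapped reads to miRBase with SeqMap, whose version is not given in the sources used here. The submitters' processing notes name mm9, whereas coordinates here are GRCm38. Here, reads of 16 nt or longer were placed without mismatch, sense, in the 2202 miRNA hairpins of GENCODE M21, and RefSeq gave the mature sequences for 4 of 4 genes. A sequence in several hairpins was counted for each gene and once in the total. Mir146a is listed there as Mir146 and Mir292a as Mir292. Arms were set by the side of the hairpin that holds the middle of a read. Ratios carry Clopper-Pearson intervals, and shares were compared by two-sided Fisher's exact tests with Benjamini-Hochberg adjustment (Python 3.11.15, scipy 1.17.1, matplotlib 3.10.9). The scripts were tested on simulated data.

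The genes named were the 4 genes, their paralogs, the genes nearest in ratio and level, the listed spermatogonial and marker miRNAs, textbook targets and Hsp90aa1. The members and the lists were chosen with earlier results of these data known. Other normalizing totals, length and read minimums, tails and distinct sequences were tried as alternatives.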

Additional observations from a re-analysis of the deposited data

How the results depend on the processing

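No paired analysis was possible because each genotype had 1 library, and for the same reason no replicate could be left out. Of 44 alternative values of the 4 KO/WT ratios, 38 stayed inside the counting interval of the reported value. Some of them could not move: leaving out sequences shared between genes did not change the ratios of Mir21a, Mir221 and Mir222. With the wide intervals of Mir221 and Mir222, the count of 38 says little about stability. Scaling to all reads gave 1.13 for Mir21a, and scaling to the median ratio of all 458 genes gave 1.12, because these totals multiply every ratio by 1.16. The 458-gene median counts genes that hold the same reads separately. The median over genes with a Mir symbol, chosen after seeing the data, gave a factor of 1.01 and 0.978 for Mir21a. Counting each distinct sequence once gave 1.36 for Mir21a, 1.18 for Mir146a, 1.52 for Mir221 and 1.38 for Mir222. These rest on 8 to 25 sequences a gene. The total was then the distinct hairpin sequences, 7551 in WT and 6394 in KO, which raises every ratio. Mir146a had 9 sequences in each library, so its value of 1.18 comes from this total alone. The sequences in WT and KO numbered 20 and 23 for Mir21a, 7 and 9 for Mir221, and 6 and 7 for Mir222. Why these 3 genes had more in KO was not tested. The 12 alternative values of the arm shares and the 12 of the leading isomiR shares all kept the outcome of their exact tests. For the arms of Mir146a and Mir222 no other outcome was possible at these counts. The 183 genes at least 1.5-fold apart became 55 of 178 with a minimum of 1000 reads, where fewer genes were tested. They became 7 of 266 among genes with a Mir symbol, a choice made after seeing the data, since the class left out held 176 of them. At 61 to 78 reads per library, the counting intervals of Mir221 and Mir222 held both no difference and a 1.5-fold reduction.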

Other observations

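Mir146b, like miR-21 and miR-222, was read mainly as a form longer than its RefSeq sequence. The 24-nt form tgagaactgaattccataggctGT, with the bases beyond the RefSeq end in capitals, had 1767 of 2115 reads in WT (83.5%) and 1823 of 2151 in KO (84.8%). The RefSeq 22-nt form had 53 and 54 reads (2.51% in both libraries). miR-146a, with the same first 17 bases, had 77.7% and 73.2% of its reads at the RefSeq end.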
